A study of Drosophila melanogaster with 2 samples.

Results

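The odorant-binding protein genes of Drosophila melanogaster were examined in a chromatin immunoprecipitation and sequencing (ChIP-seq) experiment on dBigH1, the linker histone variant of the fly germline. They were the genes whose symbol starts with Obp followed by a digit, 44 of the 15421 genes listed. Both libraries came from whole testes of adult males of w1118, a white-eyed laboratory stock, with 2000 testes dissected, freed of accessory glands and sonicated in pools of 1000. One library held chromatin precipitated with an antibody to dBigH1, and the other held input DNA taken with no antibody. DNA was sequenced, so cell type markers do not apply. There was 1 library of each, so no value has a replicate check, no test between conditions was possible and all intervals cover counting error only.

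Odorant-binding proteins are small secreted proteins held together by disulfide bonds between conserved cysteines. Many are found in the fluid around the sensory neurons of smell and taste hairs, where they bind odorants and tastants, and several others are transferred to females in seminal fluid. The genes are short and many lie side by side, in groups that arose by tandem duplication. Subfamilies are named by their cysteines: Classic proteins have the basic set, Plus-C proteins carry extra ones, Minus-C proteins lack some, and Dimer proteins join a pair of the domains. A linker histone binds nucleosomes and the DNA that enters and leaves them, so the measurement asks how much dBigH1 lay on each gene relative to its share of the DNA.

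The dBigH1 library held 2864636 reads and the input library 12747726, as recovered from the steps in the deposited values. For each gene the dBigH1 reads were divided by the input reads, scaled by these totals and set against the median gene of the table, so that 0 on the log2 scale is the median gene. That gene stood at -1.0 when scaled by the totals alone. The 95% intervals are exact Clopper-Pearson limits. Testes hold many cell types, so a lower share of cells with dBigH1 on a gene and less dBigH1 per cell cannot be told apart.

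Depth was low on these short genes. The members were 414 to 3998 bp wide with a median of 767.5 bp, and had a median of 9 dBigH1 reads and 71.5 input reads. Of the 44, 28 had fewer than 10 dBigH1 reads. Obp56i had the most dBigH1 reads, 50 against 327 in input, and Obp57b the fewest, 2 against 48. Obp50b and Obp50c are listed with the same coordinates and the same reads, so they were counted once in sums, which leaves 43 records. Obp57d is listed with the coordinates of the cuticle gene Cpr57A, so its reads cannot be told from those of that gene. In all, 14 members overlapped another listed gene.

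The family as a whole sat close to genes of its size. The dBigH1 RPKM (reads scaled by gene length and library total) of the members ranged from 1.23 for Obp57b to 8.68 for Obp47a, with a median of 3.97. Their input RPKM ranged from 4.18 for Obp18a to 13.3 for Obp44a, with a median of 7.57. For comparison, each member was given the 100 other genes nearest to it in width on the same kind of chromosome, either the X or the arms 2L, 2R, 3L and 3R. These 2735 width-matched genes had medians of 4.13 dBigH1 RPKM and 8.64 input RPKM. Their ranges, 0.32 to 52.9 in dBigH1 and 1.97 to 31.5 in input, were wider and enclosed those of the members.

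**Figure D1:**
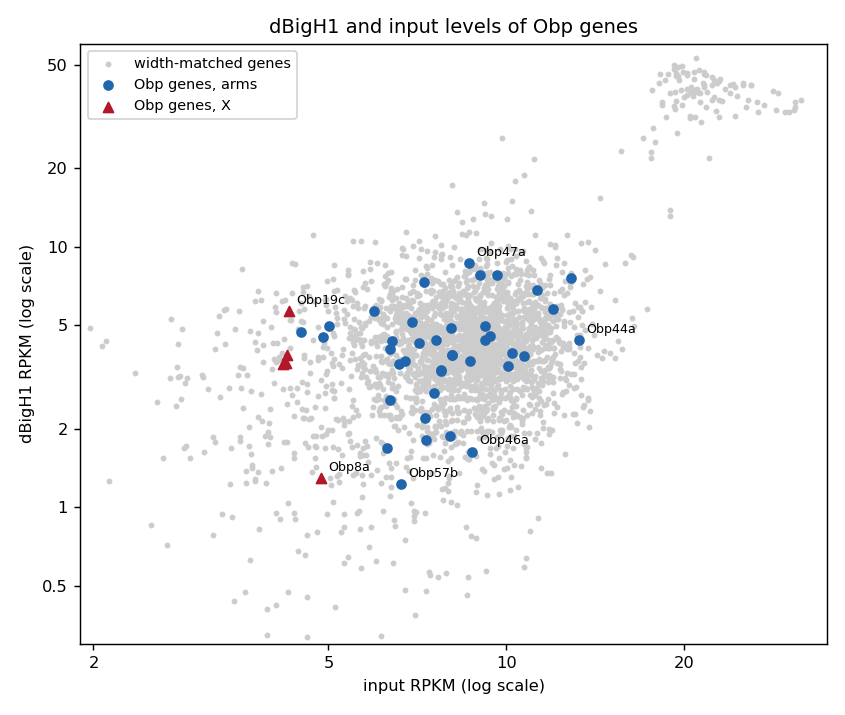
Level of each Obp gene in the dBigH1 library (vertical axis, RPKM) against input (horizontal axis, RPKM), both on log scales, over the width-matched genes in grey. Obp genes on the arms lie within the grey cloud, 4 of the 5 on the X lie at lower input than any on the arms, and the separate group at the upper right is mostly histone genes.

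Summed over the 43 records, the members had 484 dBigH1 reads and 3900 input reads, a pooled log2 ratio of 0.15 (95% interval 0.01 to 0.28). The lower bound was barely above 0 and rested on a few clusters: it fell below 0 when Obp19a to Obp19c, the Obp56 cluster or the Obp83 cluster was left out, with pooled ratios of 0.09, 0.09 and 0.12. The sign also depended on what 0 stands for. Set against the ratio of reads summed over all genes, which lies 0.40 above the median gene, the pooled value was -0.25 (-0.39 to -0.11). The median over members was 0.11, against 0 for all listed genes by construction and -0.04 for width-matched genes.

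Against genes of like width no difference was resolved over the whole family. From the pooled ratios of their width-matched sets the members would have had 513 dBigH1 reads, so the observed 484 gave a log2 difference of -0.09 (exact Poisson interval -0.22 to 0.04). The sets of 9 members, among them Obp47a, Obp49a and Obp56c, held 15 to 29 histone genes each, whose dBigH1 signal is high. With histone genes, as named by symbol, removed from the sets, a step added after the values were seen, the difference was 0.13 (-0.002 to 0.26). Both intervals include 0, but the first was -0.15 (-0.28 to -0.01) without Obp19a to Obp19c and -0.14 (-0.28 to -0.006) without the Obp83 cluster. Of the 44 members 26 stood above the median of their own set. By width, the 11 members of at least 1 kb were at 0.33 against their sets (0.14 to 0.53), with or without histone genes. The 33 members under 1 kb were at -0.36 (-0.54 to -0.18), or -0.02 (-0.20 to 0.15) without histone genes in the sets.

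Single genes spread to both sides. Of the members, 12 exceeded the median gene by 1.5-fold or more, or 27.3%, against 16.2% of all listed genes and 21.4% of width-matched genes. By the same factor 8 members were below it, or 18.2%, against 17.3% and 21.8%. The interval lay wholly above the median gene for 4 members, or 9.09%, against 17.9% of all listed genes, which are longer and more deeply counted, and 11.7% of width-matched genes. It lay wholly below for 2 members, or 4.55%, against 9.41% and 6.69%. Without histone genes the width-matched shares were 18.5% for 1.5-fold above, 22.5% for 1.5-fold below, 8.53% for intervals above and 6.93% for intervals below. For intervals above, the members' 9.09% lay between the width-matched shares with and without histone genes. The quartiles of the members ran from -0.40 to 0.72 and those of width-matched genes from -0.49 to 0.47.

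**Figure D2:**
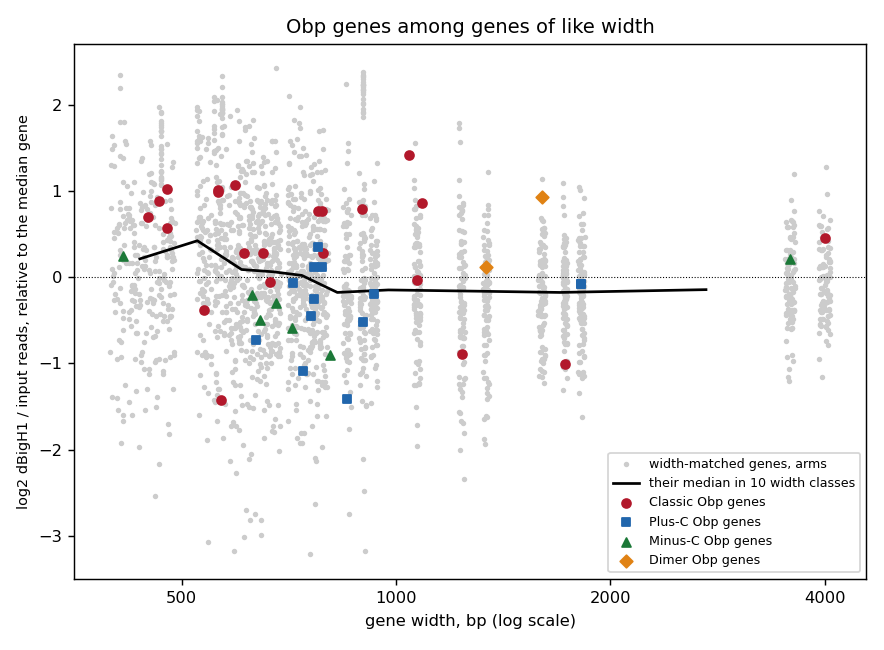
dBigH1 to input read ratio, log2, with the median gene at 0 (vertical axis) against gene width in bp (horizontal axis, log scale) for Obp genes by subfamily, with width-matched genes of the arms in grey and their median as a black line. Of the 22 Classic genes 16 lie above the dotted line of the median gene, while 10 of the 13 Plus-C and 5 of the 7 Minus-C genes lie below it.

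The plot of ratio against width shows members on both sides of the median gene. The highest member was Obp19c (FBgn0031111, chromosome X, 20288948 to 20289991, build dm3). It had 17 dBigH1 reads against 57 input reads, or 5.68 against 4.28 RPKM. Its log2 ratio was 1.41 (0.54 to 2.22), above 97 of the 100 genes in its width-matched set. Obp47a, a Classic gene on 2R (6797428 to 6797990), had 14 dBigH1 reads against 62 input reads and a log2 ratio of 1.01 (0.06 to 1.86). It stood above only 60 of its 100 width-matched genes, 29 of which were histone genes.

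Obp83cd, which encodes one of the Dimer proteins (3R, 1933856 to 1935457), had 26 dBigH1 reads against 122 input reads. Its log2 ratio was 0.93 (0.26 to 1.55), above 99 of its 100 width-matched genes. Obp56c (2R, 15587678 to 15588573) had 20 reads in dBigH1 against 103 in input, a log2 ratio of 0.79 (0.02 to 1.49). These were the 4 members whose interval excluded the median gene from above. Obp56b came second among members with at least 10 dBigH1 reads, at 1.02 on 10 dBigH1 reads against 44 input reads, but its interval reached -0.14.

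At the other end, Obp46a, a Plus-C gene on 2R (6198677 to 6199528), had 4 dBigH1 reads against 95 input reads. Its log2 ratio was -1.41 (-3.32 to -0.01), above 3 of its 100 width-matched genes. Obp57d, whose protein acts in taste hairs of the leg together with that of Obp57e, had 9 dBigH1 reads against 161 input reads, a log2 ratio of -1.0 (-2.16 to -0.04). That record (2R, 16435872 to 16437597) is shared with Cpr57A. A minimum of 10 dBigH1 reads removes all 8 members that were low by 1.5-fold, since it filters on the numerator of the ratio. Among the members it leaves, Obp50b and Obp50c had 20 dBigH1 reads against 188 input reads at -0.07 (-0.82 to 0.59), and Obp56d was at -0.05 (-1.10 to 0.85).

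**Figure D3:**
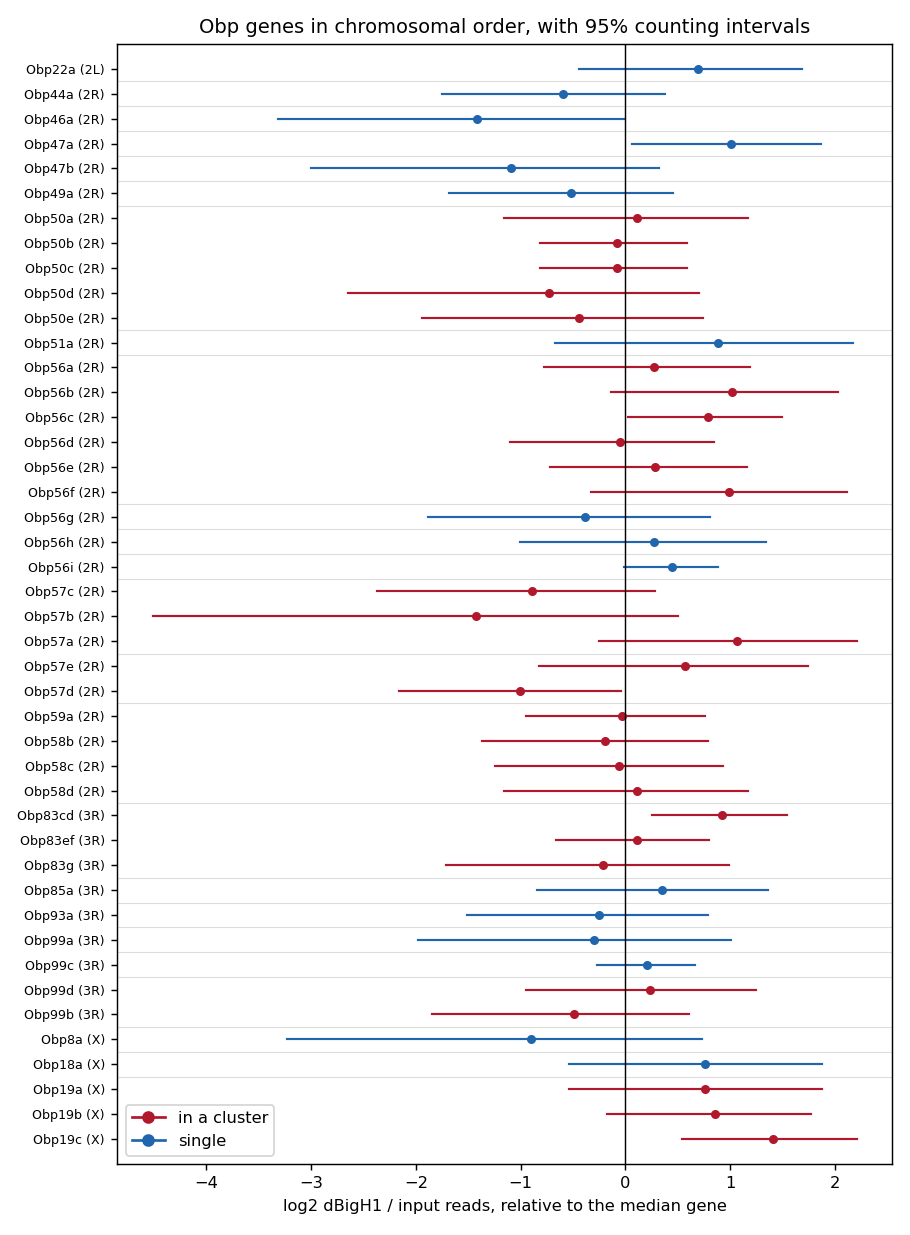
dBigH1 to input read ratio, log2, with the median gene at 0 (horizontal axis) for the 44 Obp genes in chromosomal order, with 95% counting intervals and grey lines between loci. Intervals of 38 genes cross 0, and Obp19a, Obp19b and Obp19c stand together on the right.

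Clusters were taken as 2 or more members with gaps of at most 10 kb, which gave 8 clusters with 28 members and left 16 single genes. Clustered genes had 286 dBigH1 reads against 2249 input reads, a pooled log2 ratio of 0.18 (0.0006 to 0.36). Single genes had 198 dBigH1 reads against 1651 input reads and a ratio of 0.10 (-0.12 to 0.31). The difference of 0.08 had an exact conditional interval of -0.20 to 0.37, so clustered and single genes were not told apart at this depth. Without Obp19a to Obp19c the difference was -0.01. It also moved with the gap allowed, to 0.10 (-0.18 to 0.39) at 2 kb and 0.28 (-0.08 to 0.66) at 50 kb. Among clustered members 8 of 28 were higher than the median gene by 1.5-fold or more and 4 lower by as much, and among single members 4 of 16 were higher and 4 lower. These are 28.6% and 14.3% of clustered and 25% and 25% of single members. The shares were 16.2% and 17.3% of all listed genes, and 21.4% and 21.8% of width-matched genes.

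Pooled ratios of the clusters ran from -0.51 to 1.06, and those of single genes from -1.41 to 1.01. The highest cluster was that of Obp19a, Obp19b and Obp19c on the X (20286772 to 20289991). Obp19a had 8 dBigH1 reads against 42 input reads, a log2 ratio of 0.77 (-0.54 to 1.87). Obp19b had 12 against 59, at 0.86 (-0.17 to 1.77), and Obp19c 17 against 57. Together they had 37 against 158, a pooled log2 ratio of 1.06 (0.51 to 1.59). Their width-matched sets on the X, which hold no histone gene, gave 18.3 expected dBigH1 reads. Observed over expected was 1.02 on the log2 scale (0.51 to 1.48).

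Genes around that cluster stood on the other side of the median gene. The 8 genes within 10 kb that are not members had 102 dBigH1 reads against 1788 input reads, a pooled log2 ratio of -0.97 (-1.28 to -0.68). All 8 single values were below 0, but only 2, those of HERC2 and cactin, had an interval wholly below it. The cluster differed from the 8 genes by 2.04 (exact conditional interval 1.40 to 2.65). Of the 248 width-matched genes on the X, 142 were below 0. HERC2, a large ubiquitin ligase gene, had 54 dBigH1 reads against 966 input reads and a log2 ratio of -1.0 (-1.43 to -0.61). cactin had 6 against 196, at -1.87 (-3.34 to -0.72). Pbprp2, a further odorant-binding protein gene that RefSeq names Obp19d, starts 648 bp beyond Obp19c and had 6 dBigH1 reads against 89 input reads, at -0.73 (-2.22 to 0.45). With Pbprp2 added, the cluster's pooled ratio was 0.64 (0.13 to 1.11). This cluster was singled out after its values were seen.

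**Figure D4:**
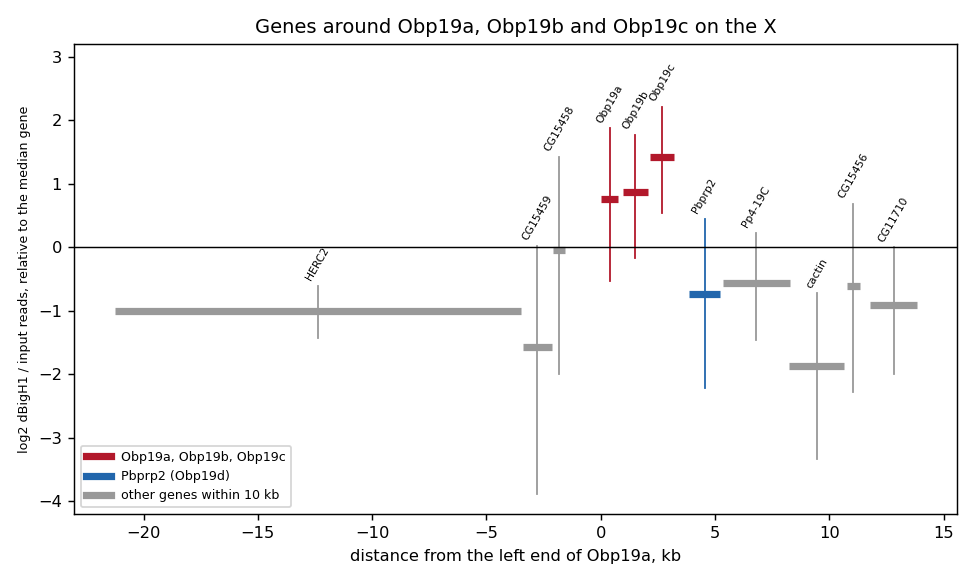
dBigH1 to input read ratio, log2, with the median gene at 0 (vertical axis) for genes within 10 kb of the Obp19a to Obp19c cluster, placed by distance in kb from the left end of Obp19a. Thick bars are gene extents and thin lines 95% counting intervals: the 3 members lie above 0 and the 8 other genes below it.

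The largest cluster, Obp56a to Obp56f on 2R (15585228 to 15601481), had 72 dBigH1 reads against 454 input reads and a pooled log2 ratio of 0.50 (0.12 to 0.86). Against its width-matched sets, which gave 79.5 expected dBigH1 reads, the cluster was at -0.14 (-0.50 to 0.19). With histone genes removed from the sets it was at 0.43 (0.08 to 0.77). Its members ran from Obp56d, an antennal gene with 11 against 102 reads at -0.05, to Obp56b at 1.02. The 3 other genes within 10 kb had a pooled ratio of 0.13 (-0.38 to 0.60), and the difference of 0.37 had an interval of -0.24 to 1.01. Of the outlying genes of the same group, Obp56i was at 0.45 (-0.01 to 0.88), Obp56h at 0.28 on 8 dBigH1 reads and Obp56g at -0.39 on 6.

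Obp83cd, Obp83ef and Obp83g on 3R together had 51 dBigH1 reads against 341 input reads, a log2 ratio of 0.42 (-0.04 to 0.85). Obp83cd was highest, Obp83ef was at 0.11 on 19 dBigH1 reads and Obp83g lowest at -0.21 on 6 against 62. The gene next to them, Gasp, had a like value of 0.39 (0.13 to 0.63).

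The remaining clusters had intervals that spanned the median gene. Obp50a to Obp50e were at -0.19 (-0.71 to 0.30), from Obp50d at -0.72 on 4 dBigH1 reads against 59 input reads to Obp50a at 0.11 on 8 against 66. The cluster of Obp58b, Obp58c, Obp58d and Obp59a was at -0.05 (-0.56 to 0.42). Its members were close together, from Obp58b at -0.20 on 9 against 92 reads to Obp58d at 0.11 on 8 against 66. Obp59a, needed for sensing humidity, was at -0.03 (-0.95 to 0.76).

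Obp57a, Obp57b and Obp57c were uneven, at a pooled -0.34 (-1.18 to 0.40). Obp57a had 8 dBigH1 reads against 34 input reads, a log2 ratio of 1.07 (-0.25 to 2.21). Obp57b had 2 against 48, at -1.43 (-4.51 to 0.50). Obp57b and Obp57c overlap and share reads. Obp57d and Obp57e were at -0.51 (-1.34 to 0.23), and Obp99b and Obp99d at -0.13 (-0.97 to 0.62).

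**Figure D5:**
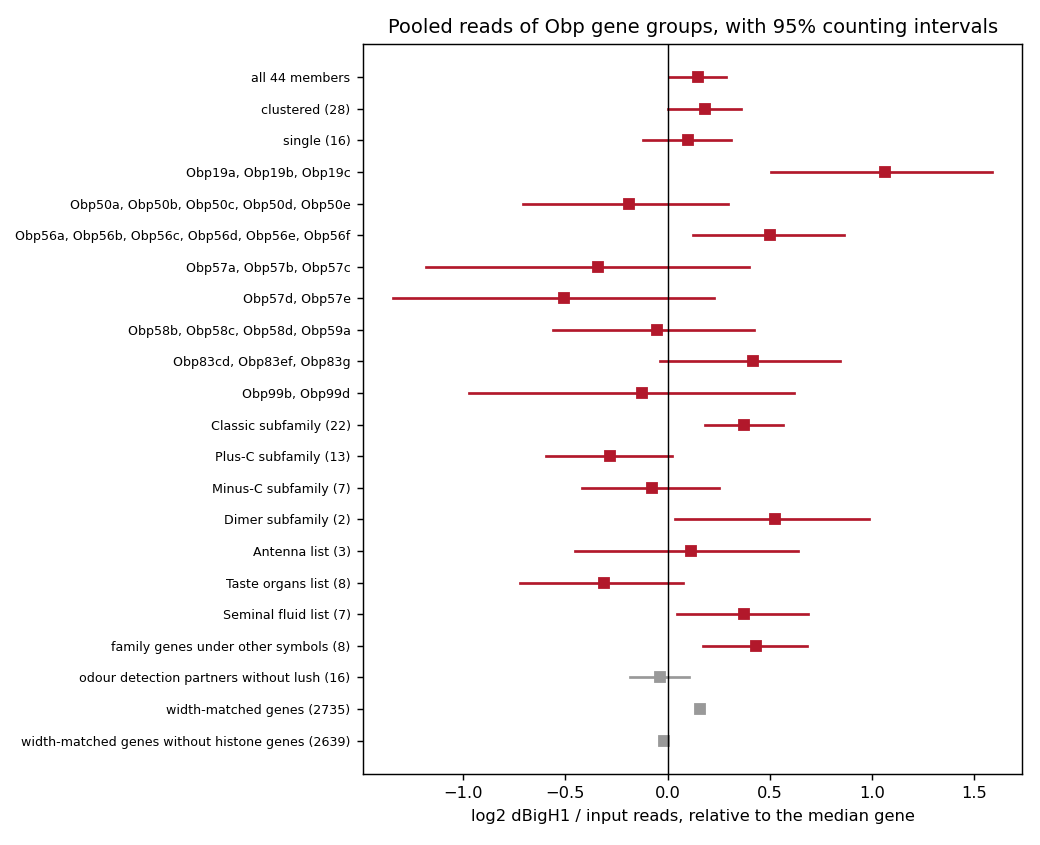
Pooled dBigH1 to input read ratio, log2, with the median gene at 0 (horizontal axis) for groups of Obp genes, with gene numbers in brackets and 95% counting intervals. Obp19a to Obp19c are farthest to the right, and the Classic and Plus-C intervals do not overlap.

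The pooled ratios of the subfamilies differed. The 22 Classic genes had 257 dBigH1 reads against 1768 input reads, a pooled log2 ratio of 0.38 (0.18 to 0.57). Of them, 11 were high by the 1.5-fold threshold and 3 low, against 16.2% high and 17.3% low among all listed genes, with a median of 0.64. The 13 Plus-C genes had 98 dBigH1 reads against 1062 input reads and a pooled ratio of -0.28 (-0.59 to 0.02). None of the 13 was high by that threshold and 3 were low, Obp46a, Obp47b and Obp50d. The 7 Minus-C genes had a pooled ratio of -0.08 (-0.42 to 0.25), with none high and 2 low, Obp8a on 3 dBigH1 reads and Obp44a on 9. The low counts were 23.1% of Plus-C and 28.6% of Minus-C genes, against 17.3% of all listed genes, and rest on 13 and 7 genes.

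Classic and Plus-C genes differed by 0.66 (exact conditional interval 0.30 to 1.02). The interval leaves out spread between genes, whose log2 ratios had a standard deviation of 0.74 among Classic and 0.50 among Plus-C genes. On the arms alone, where all Plus-C genes lie, the difference was 0.55 (0.18 to 0.93), and over all chromosomes it ranged from 0.57 to 0.75 on leaving out each locus in turn. Classic genes were shorter, with a median of 658.5 bp against 776 bp. Their median dBigH1 RPKM was 4.63 and that of Plus-C genes 3.55, while input RPKM was 7.02 and 8.05. Against their width-matched sets Classic genes were at 0.01 (-0.18 to 0.18) and Plus-C genes at -0.46 (-0.76 to -0.17) on the log2 scale, so Classic genes did not stand above genes of like width there. With histone genes removed the values were 0.34 (0.15 to 0.51) for Classic and -0.26 (-0.56 to 0.03) for Plus-C genes, and with sets matched on both width and input RPKM 0.24 (0.06 to 0.41) and -0.34 (-0.64 to -0.05). Members of a subfamily share loci, with 4 of the Plus-C records in the Obp50 cluster and 3 beside Obp59a, and the part of location in the difference was not tested.

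Members grouped by where they are known to be expressed also spread. The 7 seminal fluid genes, Obp8a, Obp22a, Obp51a, Obp56e, Obp56f, Obp56g and Obp56i, had 95 dBigH1 reads against 655 input reads, a pooled log2 ratio of 0.37 (0.05 to 0.69). Obp56i alone had 50 of these dBigH1 reads and 327 of the input reads. Against their width-matched sets the 7 genes were at 0.07 (-0.24 to 0.36), or 0.29 (-0.02 to 0.58) without histone genes, so no difference from genes of like width was resolved. Of the 7, 3 were high by the 1.5-fold threshold, Obp22a at 0.70, Obp51a at 0.89 and Obp56f at 0.99, and 1 low, Obp8a at -0.90. Among all listed genes 16.2% were high and 17.3% low. The 8 taste organ genes had 59 against 653 reads and a pooled ratio of -0.31 (-0.72 to 0.08). Against their width-matched sets the 8 genes were at -0.82 (-1.21 to -0.45), or -0.29 (-0.68 to 0.08) without histone genes. Of the 8, 1 was high, Obp19b, and 3 low, Obp57b, Obp57c and Obp57d, beside the same shares of all listed genes. These counts rest on lists of 7 and 8 genes. Obp57b and Obp57c overlap and share reads, so those reads enter the sum and the low count of the taste list for both genes. Obp49a, which acts in the suppression of sweet taste by bitter compounds, was at -0.52 (-1.68 to 0.46). Leaving aside Obp56g, which is in both lists, seminal fluid and taste genes differed by 0.74 (0.21 to 1.29). Without Obp57a, Obp57b and Obp57c the difference was 0.56 with a lower bound just under 0 (-0.007 to 1.14), and the taste list includes the shared record of Obp57d.

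By chromosome, the 5 X members had 48 dBigH1 reads against 250 input reads and a pooled log2 ratio of 0.78 (0.30 to 1.23). Obp18a had the same reads as Obp19a, 8 against 42, at 0.77, and Obp8a was the low one at 3 against 50. The 39 members on the arms had a pooled ratio of 0.09 (-0.05 to 0.24), and the difference was 0.68 (0.18 to 1.16). Males have a single X, and median input RPKM was 4.25 for X members against 7.76 on the arms. Width-matched genes had a median input RPKM of 4.93 on the X and 8.91 on the arms. Median dBigH1 RPKM was 3.59 for the X members against 2.19 for width-matched X genes, and 4.29 for members on the arms against 4.27 for their width-matched genes. Of the 48 dBigH1 reads on X members, 37 came from the Obp19 cluster. Without it the 2 other X members had 11 dBigH1 reads against 92 input reads, a ratio of 0.09 (-0.96 to 1.0), and the difference from the arms was 0.0014 (-1.06 to 0.92).

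RefSeq lists 52 genes of the family, and all of them have a row. The 8 that the table gives under other symbols had 149 dBigH1 reads against 985 input reads, a pooled log2 ratio of 0.43 (0.18 to 0.68). lush, whose protein binds the male pheromone cis-vaccenyl acetate, had 34 against 176 reads and a ratio of 0.79 (0.21 to 1.32). Pbprp3, which RefSeq names Obp83a and which is abundant in the antenna, was at 0.50 (0.01 to 0.97). Its neighbour Os-E, or Obp83b, was at 0.86 (-0.22 to 1.81). Pbprp5, or Obp28a, another antennal gene, was at -1.47 on 4 dBigH1 reads against 99 input reads (-3.37 to -0.07). Together with the 44 members these genes gave 0.21 (0.09 to 0.33). The antenna list was at 0.12 (-0.45 to 0.64) over its 3 members, and at 0.33 (0.08 to 0.57) over 10 genes when those with other symbols are counted.

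Other listed genes of chemical sensing had a pooled ratio near the median gene, but most single values lay below it. Of 18 listed partners, 17 were found by symbol, 1 of which was lush, a gene of the family counted above. The other 16 had a pooled log2 ratio of -0.04 (-0.18 to 0.11) and a median of -0.26, with 11 of the 16 below 0. None of the 16 was high or low by the 1.5-fold threshold, against 16.2% and 17.3% of all listed genes. The interval excluded the median gene for 1 of them, Snmp2, a relative of the pheromone co-receptor gene Snmp1, with 126 dBigH1 reads against 770 input reads at 0.55 (0.26 to 0.82). Intervals thus lay wholly above for 6.25% of the 16 and wholly below for none, against 17.9% and 9.41% of all listed genes. Snmp2 had the most dBigH1 reads of the 16, 126 of 430, and so raised their pooled ratio. Orco, the shared co-receptor of odorant receptors, was at -0.28 (-0.75 to 0.15) and Snmp1 at -0.09 (-0.62 to 0.40).

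The genes beside the members were compared as well. Members had a pooled log2 ratio of 0.15, against 0.07 (0.02 to 0.12) for the 92 other genes within 10 kb of a member that overlap none, and the difference of 0.08 had an interval of -0.07 to 0.23. Many of those neighbours are long. The 69 neighbours within the members' range of widths, Pbprp2 among them, had a median width of 1370 bp against 767.5 bp for members. They were thus not matched on width. These 69 were at -0.21 (-0.30 to -0.12), and members lay 0.36 above them (0.19 to 0.52). On leaving out each locus with its neighbours in turn that difference ranged from 0.26, without the Obp19 cluster, to 0.42. RhoGAP18B beside Obp18a was the highest neighbour, with 515 dBigH1 reads against 1835 input reads at 1.33 (1.18 to 1.47).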

How the data were processed

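ChIP-seq reads of 1 dBigH1 library and 1 input library from whole testes were analysed from the deposited gene table. Per the labels' protocols, 18 PCR cycles and reads of 50 nt were used. Bowtie2 and build dm3 are named in the submitters' processing notes, with the assignment of reads to genes not given in the sources used here. Per the file headers, deposited values are log2 of RPKM, and they were read as log2(RPKM + 1), since whole reads then came back for 100% of values in both libraries, within 0.01 read. The authors' deposited column headed as a MAnorm fold change has a mean near 0 and an SD of 0.999, so it was treated as a score.

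Ratios, intervals and pools were computed with Python 3.11.15, numpy 2.4.6, pandas 2.3.3 and scipy 1.17.1, and the functions were tested on simulated reads. The labels name no molecular identifiers, so reads may not be independent molecules. The lowest read number of a gene was 1 in both libraries, and genes without reads were not analysed here. Members and lists were chosen with earlier results of these data known. Full values were given for members whose interval excluded the median gene, the 3 highest and 3 lowest with at least 10 dBigH1 reads, cluster extremes, and partners whose interval excluded it; others were named after their values were seen. Subfamily and expression lists came from background knowledge. RefSeq's table for Release 6 served for names only, matching all 44 members. Sequences were not used here. The centring, pseudocount, read minimum, overlap, gap and matching were varied.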

Additional observations from a re-analysis of the deposited data

How the results depend on the processing

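Relative to the median gene the pooled log2 ratio of the 44 members was 0.15. It became -0.86 with scaling by library totals only, -0.25 with centring on summed reads and 0.38 with at least 10 dBigH1 reads, a filter on the outcome itself. The 12 members at least 1.5-fold above became 0, 5 and 7 under those settings, 1 with log2(RPKM + 5) and 4 at 2-fold. The 8 members below became 30, 16 and 0, then 5 with log2(RPKM + 1), 0 with log2(RPKM + 5), 4 at 2-fold and 3 among genes overlapping no other. With at least 10 dBigH1 reads the counts are out of 16 members, and without overlaps out of 30. On library totals the median gene itself lies at -1.0, past the lower 1.5-fold threshold. Shares of all listed genes under these other settings were not computed, so the counts are not read as a trait of the members. Clustered members were at 0.44 with at least 10 dBigH1 reads. The difference from width-matched genes, -0.09, became 0.061 with at least 10 dBigH1 reads, 0.073 with matching on input level, 0.11 as a median over members and 0.13 without histone genes in the sets. It was -0.15 without Obp19a to Obp19c (-0.28 to -0.01), and -0.15 without the X. Which cause lies behind these changes was not tested. Counts on the MAnorm column were not made, since it is not a log2 ratio. The 6 members whose interval excluded the median gene kept their sign under centring on summed reads and pseudocounts of 0.1, 1 and 5, but on summed reads the intervals of Obp47a, Obp56c and Obp83cd spanned 0 (lower bounds -0.34, -0.37 and -0.14). On library totals Obp19c and Obp47a spanned 0 too, and Obp56c and Obp83cd turned to -0.21 and -0.076. Reads per gene limit all single values. No paired analysis was possible because each group had 1 library. Centring of single intervals, leaving lush out of the partners, and settings without the X, without histone genes, without shared records and with all RefSeq family genes were added after seeing the data.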

Other observations

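In the authors' deposited table the MAnorm score of the members had a median of -0.05, against -0.22 for width-matched genes and -0.08 for all listed genes. It ran from -1.67 for Obp44a to 2.86 for Obp19c. Across the 19 loci with a neighbour within 10 kb, Spearman's rho between the pooled ratio of the members and that of their neighbours was 0.34, over loci that share both libraries. Across the 43 records, rho between dBigH1 and input RPKM was 0.27 and between width and log2 ratio -0.15. Around a single shared ratio, the dBigH1 reads of the members had a dispersion index of 1.80, where 1 is counting error alone, against 2.62 for width-matched genes without histone genes.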
